A study of Mus musculus with 12 samples.

Results

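The genes described here are the secreted Wnt ligands, their Frizzled receptors, the R-spondins and the antagonists that surround them, together with a few genes that respond to the pathway, in the lungs of Rgs4 knockout and wild-type mice. They were taken from the deposited gene table by symbol: Wnt, Fzd, Sfrp, Dkk or Rspo followed by a digit, or Frzb, Wif1, Axin2, Lef1, Lgr5, Lgr6, Notum or Nkd1. A level of at least 0.5 CPM (reads scaled to library size, on the authors' TMM-adjusted scale) was required in at least 3 of the 12 libraries. Of 49585 entries in the table, 50 matched by symbol and 40 reached that level. The 40 comprise 13 Wnt ligands, 10 Frizzled receptors, 5 Frizzled-related antagonists, 4 other secreted antagonists, 4 R-spondins, the R-spondin receptor Lgr6, and 3 genes that act inside the cell (Axin2, Nkd1 and Lef1).

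Whole lung RNA was sequenced as poly(A) mRNA in 4 groups of 3 libraries from Balb/cJ mice: RGS4 KO exposed to Aspergillus fumigatus (Af), RGS4 KO given PBS, WT exposed to Af, and WT given PBS. The study was set up to examine RGS4, a regulator of G protein signalling, in asthma, and Af is a mould that provokes allergic airway disease in mice. The part of Rgs4 that was deleted, the form, route and dose of Af and the age of the animals are not stated in what was used here. Nothing in the labels states that the libraries of a group came from separate animals, so the p-values measure the spread between these samples.

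Wnt proteins are lipid-modified signals that act over short distances. They bind Frizzled receptors and the coreceptors Lrp5 and Lrp6, which stabilises beta-catenin and lets it act in the nucleus with factors of the Tcf and Lef family. R-spondins strengthen the signal by keeping Frizzled receptors at the cell surface through Lgr receptors. Sfrp proteins and Wif1 bind Wnts, most Dkk proteins act at the coreceptors and Notum removes the lipid. Axin2, Nkd1 and Notum are themselves switched on by the pathway in many tissues and restrain it. In the mouse lung, Wnt2 and Wnt2b are required for the organ to form, and Axin2 is used to mark alveolar cells that receive a Wnt signal.

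Recovered library totals ran from 20708884 to 30229446 reads, so a gene without reads could have been present at no more than 0.0983 to 0.144 CPM (3 reads, counting error only). Rgs4 lay between 0.571 and 1.47 CPM in the 6 KO libraries and between 20.7 and 48.8 CPM in the 6 WT libraries, so each library fits its genotype label. Summed markers of alveolar type 2 cells, the surfactant-producing cells of the lung, were between 15116 and 28488 CPM in every library. In 3 libraries other markers stood apart. Genes of basal and squamous epithelium summed to 305 CPM in KO Af replicate 12 and 515 CPM in WT PBS replicate 17, against 3.09 to 43.7 CPM in the others. WT Af replicate 18 held Rag1, which immature lymphocytes use to rearrange their receptors, at 109 CPM, against at most 0.754 CPM elsewhere. Apart from these, WT PBS replicate 15 had the lowest summed B cell markers, 63.6 CPM against 161 to 276 CPM in the others. It also had the highest alveolar type 2 sum. Every test below is limma with a mean-variance trend on log2(CPM + 0.5), fitted to all 4 groups and adjusted by Benjamini-Hochberg over 17552 genes. A gene is called at an adjusted p under 0.05, fold changes on that scale understate the change of low genes, and ± beside a log2 fold change is its standard error.

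Per kilobase of exon, the order of levels in WT PBS lungs was led by Nkd1 and Dkk3. Nkd1, a cytoplasmic inhibitor of Dishevelled, stood at 44.1 ± 1.72 CPM per kb (mean ± SD, n = 3). Dkk3, a divergent Dickkopf protein, stood at 43.2 ± 10.1 CPM per kb, so these levels do not differ beyond their spread. The receptor Fzd4 followed at 30.3 ± 0.862 CPM per kb, Fzd1 at 16.1 ± 1.43 and Fzd7 at 12.7 ± 1.23. Among the ligands, Wnt2 had the highest level at 7.92 ± 1.33 CPM per kb, followed by Wnt3a at 4.59 ± 0.265, Wnt10b at 3.41 ± 0.527 and Wnt9a at 3.29 ± 0.0177, whose spreads are small enough to set Wnt3a above the other 2 but do not separate Wnt10b from Wnt9a. Rspo1, at 8.03 ± 1.58 CPM per kb, was the highest R-spondin, and Sfrp1, at 6.52 ± 1.76, the highest Frizzled-related antagonist. Axin2 stood at 6.84 ± 0.0866 CPM per kb. The lowest were Fzd9, Wnt9b, Fzd10, Wnt6 and Rspo2, with means from 0.254 down to 0.0600 CPM per kb. At the third highest library, the value the minimum turns on, the 4 genes just inside were at 0.564 CPM (Fzd9), 0.567 CPM (Wnt6), 0.791 CPM (Fzd10) and 0.950 CPM (Rspo2). Just outside were Wnt3 at 0.440 CPM, the stem cell marker Lgr5 at 0.434 CPM and Wnt10a at 0.283 CPM. Wnt1, Wnt8a, Wnt8b, Wnt16, Dkk1, Dkk4 and Rspo4os, an antisense gene of Rspo4, were lower still and were not tested.

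**Figure D1:**
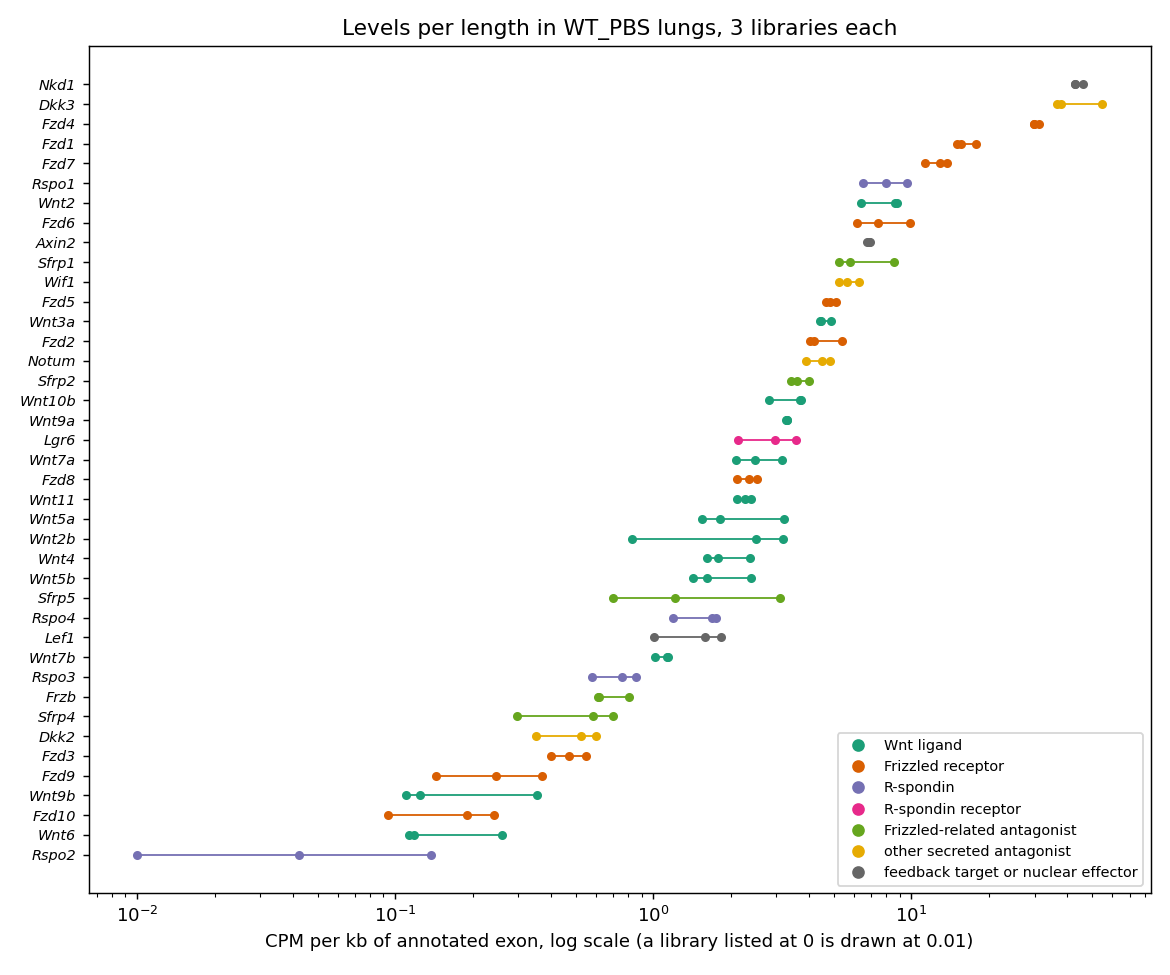
Level of each of the 40 genes per kilobase of exon in the 3 WT PBS libraries (log axis), with 1 point per library, a line over their range and colours for the roles, sorted by mean. Nkd1, Dkk3 and Fzd4 lie at the top and Rspo2, whose library listed at 0 is drawn at 0.01, at the bottom.

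Exposure to Af lowered more of these genes than it raised. In KO lungs 24 of 40 fell, 6 rose and 10 did not pass the test, and in WT lungs 21 fell, 4 rose and 15 did not pass. Among all 17552 genes, Af called 55.0% in KO lungs (27.3% higher and 27.7% lower) and 49.1% in WT lungs (24.9% higher and 24.2% lower). The median log2 fold change of the 40 was -0.56 in KO lungs and -0.50 in WT lungs, against -0.01 over all genes in each genotype. Of the genes that fell, 13 in KO lungs and 7 in WT lungs did so at least 2-fold, against 7.18% of all genes in KO and 5.58% in WT. The Af and PBS groups did not overlap for 6 of the 40 higher and 24 lower in KO, against 30.2% and 30.7% of all genes, and for 4 higher and 22 lower in WT, against 31.6% and 31.4%. In both genotypes 19 fell and Sfrp1 and Rspo3 rose, and no gene was called in opposite directions. The share of all genes called alike in both genotypes is not given here, so this joint count has no baseline. The 40 were chosen by name and not as a random draw, so nothing is read from these counts and shares about the genes as a set. In bulk tissue, fewer cells of a type, less RNA per cell and more RNA from other cells cannot be told apart.

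**Figure D2:**
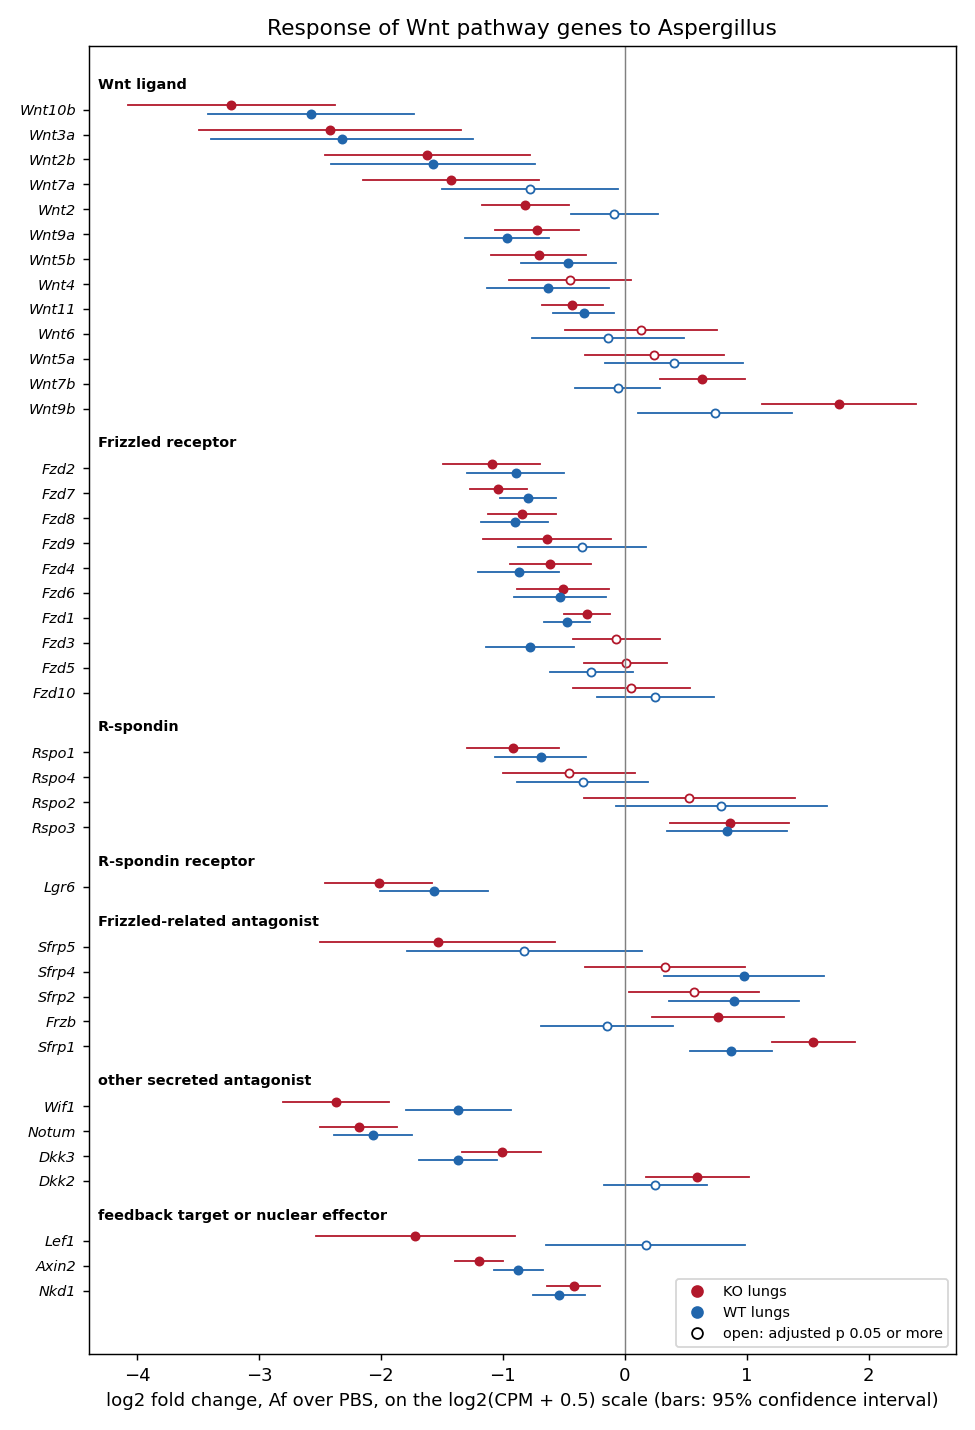
Log2 fold change of Af against PBS for each of the 40 genes, with its 95% interval, in KO lungs (upper point of each pair) and WT lungs (lower point), sorted by role. Filled points passed the adjusted test. Wnt10b and Wnt3a lie farthest to the left among the ligands, and Sfrp1 and Rspo3 lie right of 0 in both genotypes.

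The Wnt ligands gave the widest spread of log2 fold changes. Of 13, 8 fell and 2 rose in KO lungs, against 27.7% and 27.3% of all genes. In WT lungs 7 fell and none rose, against 24.2% and 24.9%. Wnt10b (ENSMUSG00000022996.14, chr15:98770712-98778150, minus strand), a ligand that signals through beta-catenin, had the largest fall of the 40 in both genotypes. It measured 2.20, 1.24 and 0.617 CPM in KO Af lungs, against 18.0, 20.5 and 10.5 CPM in KO PBS lungs. In WT it measured 2.93, 1.41 and 0.749 CPM in WT Af lungs, against 9.52, 12.6 and 12.7 CPM in WT PBS lungs. Every Af library lay below every PBS library of its genotype, and the level was 9.35-fold lower in KO lungs (log2 -3.23 ± 0.39, adjusted p = 3.52e-05) and 5.96-fold lower in WT lungs (log2 -2.57 ± 0.39, adjusted p = 2.42e-04).

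Wnt3a (ENSMUSG00000009900.7, chr11:59248033-59290752, minus strand), another ligand of the beta-catenin branch, stood at 5.23, 2.30 and 0.848 CPM in KO Af lungs, against 15.6, 19.6 and 9.67 CPM in KO PBS lungs. Its WT values were 3.89, 2.49 and 0.899 CPM in WT Af lungs, against 12.3, 12.2 and 13.5 CPM in WT PBS lungs. The groups did not overlap, and the gene was 5.34-fold lower in KO (log2 -2.42 ± 0.49, adjusted p = 0.00147) and 4.99-fold lower in WT (log2 -2.32 ± 0.49, adjusted p = 0.00235). Wnt9a lies 16.175 kb from Wnt3a on the opposite strand. It fell by less, at log2 -0.72 ± 0.16 in KO lungs and -0.96 ± 0.16 in WT lungs.

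For both ligands, replicate 12 was the highest and replicate 14 the lowest of the KO Af lungs, and replicate 18 the highest and replicate 20 the lowest of the WT Af lungs. The sum of 10 alveolar type 1 markers ranked the 3 Af libraries of each genotype the same way, but not the 3 WT PBS libraries. Sums of the alveolar fibroblast markers and of the T cell precursor genes described below ranked the Af libraries this way too. Of the 10 alveolar type 1 markers, 8 fell and 1 rose in KO and 8 fell and none rose in WT. Their sum was 2611 to 4402 CPM in KO Af lungs, 5235 to 7562 CPM in KO PBS lungs, 2487 to 3654 CPM in WT Af lungs and 6469 to 7552 CPM in WT PBS lungs. The part of any of these cell types in the Wnt10b and Wnt3a values was not tested.

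Wnt7a (ENSMUSG00000030093.7, chr6:91363981-91411363, minus strand), also a beta-catenin ligand, had 6.96, 4.09 and 2.54 CPM in KO Af lungs, against 14.6, 15.0 and 8.09 CPM in KO PBS lungs. In WT mice it had 5.85, 4.72 and 3.26 CPM in WT Af lungs, against 7.86, 10.0 and 6.61 CPM in WT PBS lungs. It fell 2.68-fold in KO (log2 -1.42 ± 0.33, adjusted p = 0.00330), while the WT difference did not pass (log2 -0.78 ± 0.33, adjusted p = 0.0691) although its groups did not overlap, and was called in 5 alternative settings. Wnt2b (ENSMUSG00000027840.5, chr3:104945272-104961921, minus strand), one of the pair needed to form the lung, stood at 2.04, 1.56 and 1.70 CPM in KO Af lungs, against 9.74, 5.50 and 4.92 CPM in KO PBS lungs, and at 2.45, 2.52 and 2.06 CPM in WT Af lungs, against 3.48, 10.5 and 13.3 CPM in WT PBS lungs. WT PBS replicate 15 lay far below its 2 companions, but above all WT Af libraries. The fall was 3.07-fold in KO (log2 -1.62 ± 0.38, adjusted p = 0.00381) and 2.98-fold in WT (log2 -1.57 ± 0.38, adjusted p = 0.00533).

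Smaller falls in both genotypes were seen for Wnt5b and Wnt11, ligands best known for signalling without beta-catenin. Wnt5b changed by log2 -0.70 ± 0.18 in KO lungs and -0.46 ± 0.18 in WT lungs, and Wnt11 by -0.43 ± 0.12 in KO and -0.34 ± 0.12 in WT. The WT calls of both were lost in 7 alternative settings each. Wnt4, which patterns kidney and reproductive tract in the mouse embryo, was at log2 -0.45 ± 0.23, adjusted p = 0.115 in KO lungs, where 4 settings called it, one of them without KO Af replicate 12 (adjusted p = 0.0113), and was called lower in WT lungs (log2 -0.63 ± 0.23, adjusted p = 0.0381), a call lost in 5 settings. Wnt5a, the main ligand of the branch without beta-catenin in the mouse lung, averaged 21.2 ± 7.04 CPM in KO Af, 17.2 ± 1.24 CPM in KO PBS, 21.9 ± 3.401 CPM in WT Af and 17.2 ± 7.04 CPM in WT PBS lungs (SD, n = 3), and was not called. Wnt6 stayed between 0.149 and 0.835 CPM in all 12 libraries and was not called either.

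**Figure D3:**
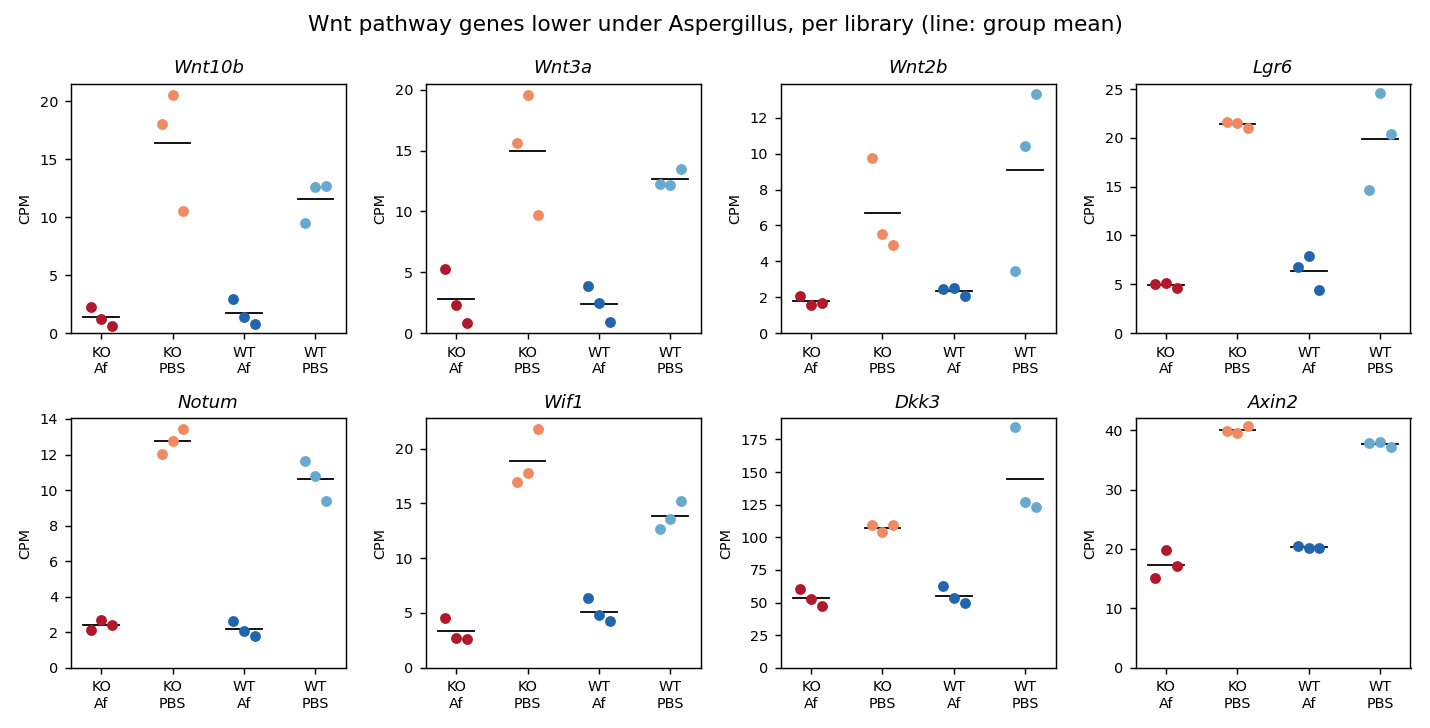
CPM of 8 genes lower under Af, with 1 point per library and a line at each group mean, in the order KO Af, KO PBS, WT Af and WT PBS. For all 8 genes, the 3 Af libraries of each genotype lie below the 3 PBS libraries of that genotype.

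Af also raised 2 ligands in KO lungs. Wnt9b (ENSMUSG00000018486.2, chr11:103727364-103749821, minus strand), which induces kidney tubules in the mouse embryo, measured 1.93, 1.65 and 1.85 CPM in KO Af lungs, against 0.107, 0.149 and 0.308 CPM in KO PBS lungs. The groups were apart by a fitted 3.38-fold (log2 1.76 ± 0.29, adjusted p = 3.47e-04), which depends on the pseudocount because the KO PBS libraries held 3 to 7 reads of it. WT lungs had 2.59, 1.28 and 1.39 CPM in WT Af lungs and 0.497, 0.564 and 1.61 CPM in WT PBS lungs, where WT PBS replicate 17 lay inside the Af range and the difference did not pass (log2 0.74 ± 0.29, adjusted p = 0.0523). Without that library the WT difference was called as well (log2 1.08, adjusted p = 0.00514), as it was in 5 settings in all. Wnt7b (ENSMUSG00000022382.14, chr15:85535437-85582473, minus strand), an epithelial ligand required for growth of the mouse lung, measured 5.15, 4.14 and 5.67 CPM in KO Af lungs, against 2.67, 2.64 and 3.82 CPM in KO PBS lungs, higher by 1.56-fold (log2 0.64 ± 0.16, adjusted p = 0.00530). WT levels were 4.65, 5.50 and 5.24 CPM in WT Af lungs and 5.59, 5.51 and 4.96 CPM in WT PBS lungs and overlapped (log2 -0.06 ± 0.16, adjusted p = 0.788).

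Of the 10 Frizzled receptors, 7 fell and none rose in each genotype. Among all genes 27.7% fell and 27.3% rose in KO, and 24.2% fell and 24.9% rose in WT. Fzd1, Fzd2, Fzd4, Fzd6, Fzd7 and Fzd8 fell in both. Fzd2 (ENSMUSG00000050288.6, chr11:102604396-102608058, plus strand) had 9.75, 9.01 and 7.94 CPM in KO Af lungs, against 19.5, 21.2 and 17.8 CPM in KO PBS lungs. WT values of Fzd2 were 11.8, 8.29 and 6.63 CPM in WT Af lungs, against 19.8, 15.3 and 14.8 CPM in WT PBS lungs. It was 2.13-fold lower in KO (log2 -1.09 ± 0.18, adjusted p = 3.93e-04) and 1.86-fold lower in WT (log2 -0.89 ± 0.18, adjusted p = 0.00185), with no overlap in either. Fzd7 (ENSMUSG00000041075.8, chr1:59482424-59486955, plus strand), which is close to Fzd1 and Fzd2 in sequence, had 26.3, 32.4 and 26.3 CPM in KO Af lungs, against 57.9, 54.8 and 62.7 CPM in KO PBS lungs. For WT it had 34.8, 30.2 and 33.6 CPM in WT Af lungs, against 62.3, 58.4 and 51.3 CPM in WT PBS lungs. This was 2.05-fold lower in KO (log2 -1.04 ± 0.11, adjusted p = 1.13e-05) and 1.73-fold lower in WT (log2 -0.79 ± 0.11, adjusted p = 1.09e-04).

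Fzd4, the receptor for norrin and the highest Frizzled by length-adjusted level, averaged 129.6 ± 25.7 CPM in KO Af and 196 ± 8.78 CPM in KO PBS lungs (SD, n = 3), and 113 ± 22.7 CPM in WT Af and 203 ± 5.79 CPM in WT PBS lungs. It fell in both, by 1.53-fold in KO and 1.83-fold in WT. Fzd4 is prominent in endothelium, and of 8 endothelial markers 5 fell in KO and 4 in WT, with none higher. Their sum was 2643 to 3822 CPM in KO Af, 5739 to 5786 CPM in KO PBS, 3156 to 3932 CPM in WT Af and 4320 to 5178 CPM in WT PBS lungs, and their part in the Fzd4 values was not tested. Fzd8 fell as well (log2 -0.84 ± 0.13 in KO and -0.90 ± 0.13 in WT), and so did Fzd1 (-0.31 ± 0.09 in KO and -0.47 ± 0.09 in WT). Fzd6, which takes part in planar cell polarity, changed by log2 -0.51 ± 0.17 in KO and -0.53 ± 0.17 in WT, and each of its calls was lost in 4 alternative settings.

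Fzd3, also a polarity receptor, was called in WT lungs alone. It averaged 3.45 ± 0.586 CPM in KO Af and 3.64 ± 0.561 CPM in KO PBS lungs, while WT Af lungs had 3.31 ± 0.283 CPM and WT PBS lungs 6.07 ± 0.959 CPM (SD, n = 3). The difference between these responses did not pass (log2 0.71 ± 0.23, adjusted p = 0.280). Fzd9 was at 0 in 1 KO Af library, which allows up to 0.138 CPM, and at most 0.850 CPM anywhere, and its call in KO lungs (log2 -0.64 ± 0.24, adjusted p = 0.0400) was lost in 10 settings. Fzd5 averaged 26.0 ± 5.91 CPM in KO Af, 25.7 ± 4.53 CPM in KO PBS, 27.8 ± 1.08 CPM in WT Af and 33.7 ± 1.43 CPM in WT PBS lungs. Neither Fzd5 nor Fzd10, which lay between 0.304 and 1.12 CPM, was called.

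R-spondins moved in different directions. Rspo1, the most abundant by length-adjusted level, averaged 8.33 ± 1.63 CPM in KO Af and 16.0 ± 1.72 CPM in KO PBS lungs (SD, n = 3), and 9.40 ± 1.16 CPM in WT Af and 15.6 ± 3.06 CPM in WT PBS lungs. It fell in both genotypes (log2 -0.92 ± 0.17, adjusted p = 8.28e-04 in KO and -0.69 ± 0.17, adjusted p = 0.00607 in WT). Rspo3, which mouse endothelium is known to release, rose in both. It measured 4.13, 6.76 and 6.79 CPM in KO Af lungs, against 3.41, 2.56 and 2.90 CPM in KO PBS lungs, and 3.31, 5.602 and 4.57 CPM in WT Af lungs, against 2.65, 2.34 and 1.79 CPM in WT PBS lungs. The groups did not overlap, with log2 0.86 ± 0.22, adjusted p = 0.00653 in KO and 0.84 ± 0.22, adjusted p = 0.00889 in WT. Rspo4 ranged from 2.02 to 4.46 CPM and was not called. Rspo2 ranged from 0 to 1.52 CPM, with 1 WT PBS library at 0 (an upper limit of 0.142 CPM), and was not called.

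Lgr6 (ENSMUSG00000042793.13, chr1:134983301-135105276, minus strand), a receptor for R-spondins found on airway smooth muscle in the mouse, fell in both genotypes. It measured 4.99, 5.10 and 4.63 CPM in KO Af lungs, against 21.6, 21.5 and 21.1 CPM in KO PBS lungs. WT lungs had 6.81, 7.93 and 4.46 CPM in WT Af lungs, against 14.6, 24.6 and 20.4 CPM in WT PBS lungs. All Af libraries lay below all PBS libraries, and the fall was 4.05-fold in KO (log2 -2.02 ± 0.20, adjusted p = 9.23e-06) and 2.96-fold in WT (log2 -1.56 ± 0.20, adjusted p = 8.17e-05). Among 8 smooth muscle markers, 4 rose and 3 fell in KO and 4 rose and 1 fell in WT, and their sum was 1511 to 1629 CPM in KO Af, 1083 to 1174 CPM in KO PBS, 1344 to 1594 CPM in WT Af and 1070 to 1282 CPM in WT PBS lungs. The related Lgr5 did not reach the minimum.

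Among secreted antagonists outside the Sfrp family, Notum, Wif1 and Dkk3 fell in both genotypes. Notum (ENSMUSG00000042988.10, chr11:120653788-120661175, minus strand), the enzyme that inactivates Wnts by removing their lipid, measured 2.12, 2.71 and 2.43 CPM in KO Af lungs, against 12.0, 12.7 and 13.5 CPM in KO PBS lungs. In WT it was at 2.64, 2.06 and 1.80 CPM in WT Af lungs, against 11.6, 10.8 and 9.40 CPM in WT PBS lungs. No Af library exceeded 2.71 CPM and no PBS library was under 9.40 CPM. Notum was 4.54-fold lower in KO (log2 -2.18 ± 0.15, adjusted p = 5.47e-07) and 4.19-fold lower in WT (log2 -2.07 ± 0.15, adjusted p = 1.25e-06). Its exons overlap an opposite-strand gene, Notumos, that reached at most 0.780 CPM.

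Wif1 (ENSMUSG00000020218.11, chr10:121033960-121100650, plus strand), which binds Wnts outside the cell, stood at 4.56, 2.76 and 2.62 CPM in KO Af lungs, against 16.9, 17.8 and 21.8 CPM in KO PBS lungs. Its WT levels were 6.38, 4.78 and 4.23 CPM in WT Af lungs, against 12.7, 13.6 and 15.2 CPM in WT PBS lungs. It fell 5.17-fold in KO (log2 -2.37 ± 0.20, adjusted p = 2.52e-06) and 2.57-fold in WT (log2 -1.36 ± 0.20, adjusted p = 1.91e-04), without overlap. Dkk3 (ENSMUSG00000030772.6, chr7:112116017-112159057, minus strand) had 60.6, 52.5 and 47.2 CPM in KO Af lungs, against 109, 104 and 109 CPM in KO PBS lungs. The WT values were 62.5, 53.5 and 49.8 CPM in WT Af lungs, against 184, 127 and 124 CPM in WT PBS lungs, where replicate 15 stood above the other PBS lungs. It fell 2.01-fold in KO (log2 -1.01 ± 0.15, adjusted p = 1.44e-04) and 2.58-fold in WT (log2 -1.37 ± 0.15, adjusted p = 2.29e-05). Dkk2, a Dickkopf that binds the coreceptors, was called higher in KO (log2 0.60 ± 0.19, adjusted p = 0.0211) at levels of 1.14 to 2.63 CPM, and that call was lost in 7 settings.

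Frizzled-related antagonists carry a Frizzled-like domain that captures Wnts. Of 5, 2 rose and 1 fell in KO under Af, against 27.3% and 27.7% of all genes. In WT 3 rose and none fell, against 24.9% and 24.2%. The KO rise of Frzb was lost in 5 alternative settings. Sfrp1 (ENSMUSG00000031548.7, chr8:23411502-23449632, plus strand) measured 55.8, 62.8 and 55.5 CPM in KO Af lungs, against 20.0, 18.5 and 20.0 CPM in KO PBS lungs. WT lungs gave 46.1, 59.0 and 50.2 CPM in WT Af lungs, against 37.3, 23.0 and 25.3 CPM in WT PBS lungs. The rise was 2.92-fold in KO (log2 1.55 ± 0.15, adjusted p = 9.20e-06) and 1.83-fold in WT (log2 0.87 ± 0.15, adjusted p = 7.33e-04), and neither pair of groups overlapped.

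Sfrp2 averaged 12.9 ± 3.73 CPM in KO Af and 8.39 ± 1.34 CPM in KO PBS lungs (SD, n = 3), with log2 0.57 ± 0.24, adjusted p = 0.0665, and was called there in 6 alternative settings, edgeR, DESeq2 and the fit without KO Af replicate 12 (adjusted p = 0.0220) among them. WT Af lungs had 15.7 ± 5.29 CPM and WT PBS lungs 7.91 ± 0.677 CPM, and Sfrp2 rose there (log2 0.90 ± 0.24, adjusted p = 0.00991). Sfrp4 was at log2 0.33 ± 0.30, adjusted p = 0.366 in KO and rose in WT (log2 0.98 ± 0.30, adjusted p = 0.0179), a call lost in 3 settings. Neither gene's response differed between genotypes by the test of that difference (adjusted p = 0.814 for Sfrp2 and 0.664 for Sfrp4).

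Sfrp5 (ENSMUSG00000018822.7, chr19:42197971-42202252, minus strand) went the other way from Sfrp1. It measured 0.905, 0.506 and 0.270 CPM in KO Af lungs, against 2.63, 1.37 and 4.0 CPM in KO PBS lungs. WT lungs had 1.25, 1.90 and 0.899 CPM in WT Af lungs and 1.32, 2.30 and 5.86 CPM in WT PBS lungs, with wide spread and overlap. It fell 2.90-fold in KO (log2 -1.53 ± 0.44, adjusted p = 0.0113), a call lost without KO PBS replicate 11 (adjusted p = 0.0505), and did not pass in WT (log2 -0.82 ± 0.44, adjusted p = 0.140) except without WT PBS replicate 15 (adjusted p = 0.0402). Frzb, also known as Sfrp3, rose in KO lungs and is described with the genotype comparison.

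**Figure D4:**
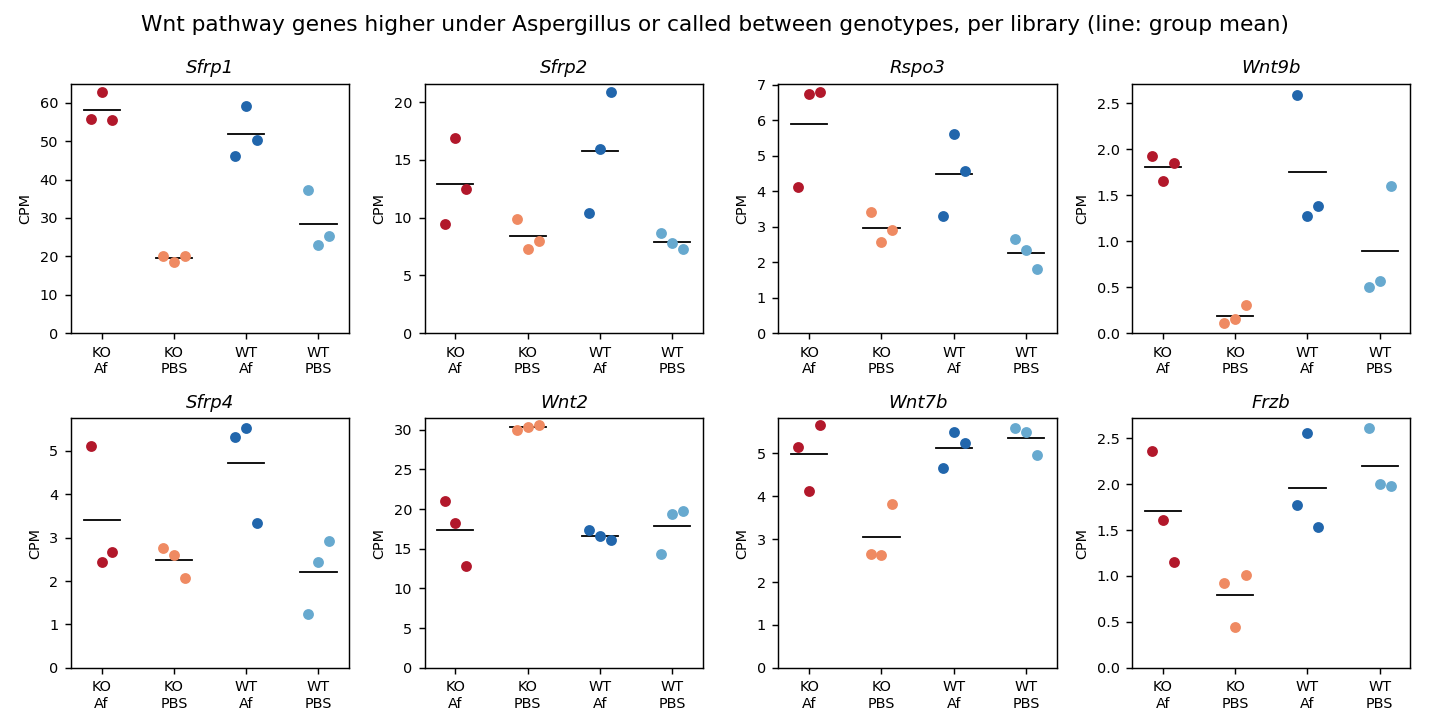
CPM of 8 genes that were higher under Af or were called between genotypes, with 1 point per library and a line at each group mean, in the order KO Af, KO PBS, WT Af and WT PBS. Sfrp1 and Rspo3 are higher in the Af libraries of both genotypes, while for Wnt9b, Wnt7b and Frzb the KO PBS libraries lie lowest.

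Axin2 (ENSMUSG00000000142.15, chr11:108920349-108950783, plus strand), the scaffold of the beta-catenin destruction complex that is used as a readout of the pathway, measured 15.1, 19.8 and 17.1 CPM in KO Af lungs, against 39.8, 39.5 and 40.7 CPM in KO PBS lungs. WT lungs had 20.6, 20.2 and 20.2 CPM in WT Af lungs, against 37.8, 38.1 and 37.1 CPM in WT PBS lungs. Values were close together within every group but KO Af, and no group overlapped its partner. The fall was 2.29-fold in KO (log2 -1.19 ± 0.09, adjusted p = 1.31e-06) and 1.83-fold in WT (log2 -0.87 ± 0.09, adjusted p = 1.85e-05). Nkd1 averaged 138 ± 21.3 CPM in KO Af and 184 ± 7.48 CPM in KO PBS lungs, and 138 ± 3.26 CPM in WT Af and 201 ± 7.84 CPM in WT PBS lungs (SD, n = 3). It fell 1.34-fold in KO and 1.45-fold in WT. The falls of Axin2, Nkd1 and Notum stood in every alternative setting in both genotypes.

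Promoter sequence was searched for CTTTGAT, the core of the site that Tcf and Lef factors bind, on both strands (ATCAAAG on the other) in the 250 bases upstream of each start. RefSeq (GRCm38.p6) gave 34 such windows for 28 of the 40 genes, and 2 of the 34 (5.88%) held the 7 letters, against 1053 of 32851 windows (3.21%) over all genes. The 4 windows below are those of Axin2 and Wnt10b, which carry the results above, and the 2 with a match, from Wnt11 and from an internal start of Wnt5b. Each is given 5′ to 3′ on the strand of its gene, in lower case, with the match in capitals. Axin2 is at chr11:108920099-108920348 (plus strand), Wnt10b at chr15:98778151-98778400 (minus), Wnt11 at chr7:98834862-98835111 (plus) and Wnt5b at chr6:119449387-119449636 (minus).
Axin2: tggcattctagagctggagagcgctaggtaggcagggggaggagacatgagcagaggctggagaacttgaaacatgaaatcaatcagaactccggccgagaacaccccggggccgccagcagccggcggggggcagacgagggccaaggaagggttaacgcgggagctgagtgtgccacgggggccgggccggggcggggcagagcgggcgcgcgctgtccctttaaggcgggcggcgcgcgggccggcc
Wnt10b: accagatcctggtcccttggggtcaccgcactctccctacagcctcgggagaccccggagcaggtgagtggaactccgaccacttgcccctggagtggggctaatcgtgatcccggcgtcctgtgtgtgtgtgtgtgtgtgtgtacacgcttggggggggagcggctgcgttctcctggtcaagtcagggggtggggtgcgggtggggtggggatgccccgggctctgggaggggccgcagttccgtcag
Wnt11: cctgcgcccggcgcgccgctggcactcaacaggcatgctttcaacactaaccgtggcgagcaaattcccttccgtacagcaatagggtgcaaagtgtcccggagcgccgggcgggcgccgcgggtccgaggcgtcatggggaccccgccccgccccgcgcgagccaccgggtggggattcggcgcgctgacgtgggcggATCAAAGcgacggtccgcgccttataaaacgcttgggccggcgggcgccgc
Wnt5b: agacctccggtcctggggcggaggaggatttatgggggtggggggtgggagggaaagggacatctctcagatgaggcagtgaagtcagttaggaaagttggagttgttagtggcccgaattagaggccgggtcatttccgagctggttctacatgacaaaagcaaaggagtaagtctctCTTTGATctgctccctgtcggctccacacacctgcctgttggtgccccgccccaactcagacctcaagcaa
The match in Wnt11 begins 51 bases before the start and lies on the opposite strand, and that in Wnt5b begins 71 bases before its start on the gene's strand. Axin2 and Wnt10b, with the larger falls, had no match in this window, which says only that these letters are not in it.

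Lef1 (ENSMUSG00000027985.14, chr3:131110471-131224356, plus strand), a partner of beta-catenin in the nucleus that T cells also express, had the largest difference in response between genotypes among the 40 (log2 -1.89 ± 0.53, adjusted p = 0.208), which did not pass the test. It measured 6.76, 6.99 and 6.32 CPM in KO Af lungs, against 20.97, 25.1 and 23.5 CPM in KO PBS lungs. The KO groups did not overlap and the level was 3.29-fold lower under Af (log2 -1.72 ± 0.37, adjusted p = 0.00219). In WT it measured 31.2, 10.9 and 8.27 CPM in WT Af lungs, against 8.82, 16.0 and 14.0 CPM in WT PBS lungs, and the groups overlapped (log2 0.17 ± 0.37, adjusted p = 0.723). The highest WT value came from Af replicate 18. Without that library the WT change was log2 -0.38 (adjusted p = 0.174), and the difference in response was -1.34 (adjusted p = 0.191). Under Af, KO lungs lay at log2 -1.03 ± 0.37, adjusted p = 0.403 against WT lungs, and at -0.48 (adjusted p = 0.561) without it. Under PBS, KO lungs lay at log2 0.86 against WT lungs, without overlap. This was the highest value of the 40 in that comparison and was not called.

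Library 18 also carried genes of T cell precursors, which are abundant in the thymus. Of a list of 6 drawn up after its Lef1 value was seen, Rag1 stood at 109 CPM there, Dntt at 57.5 CPM, Cd8b1 at 62.4 CPM, Themis at 31.7 CPM, Rag2 at 13.2 CPM and Ptcra at 2.69 CPM, each the highest of the 12 libraries. The summed list was 276 CPM in library 18 and 4.18 to 17.1 CPM in the other 11. Tcf7, the Tcf factor of T cells, was at 217 CPM there and at most 79.7 CPM elsewhere. The summed level of 10 T cell markers was 240 to 243 CPM in KO Af, 253 to 348 CPM in KO PBS, 232 to 483 CPM in WT Af and 92.8 to 190 CPM in WT PBS lungs, so these markers, like Lef1, had their highest value in library 18 and did not overlap between KO PBS and WT PBS lungs. Of the 10, 1 rose and none fell in KO under Af, and 9 rose and none fell in WT. The part of T cells or their precursors in the Lef1 values was not tested.

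**Figure D5:**
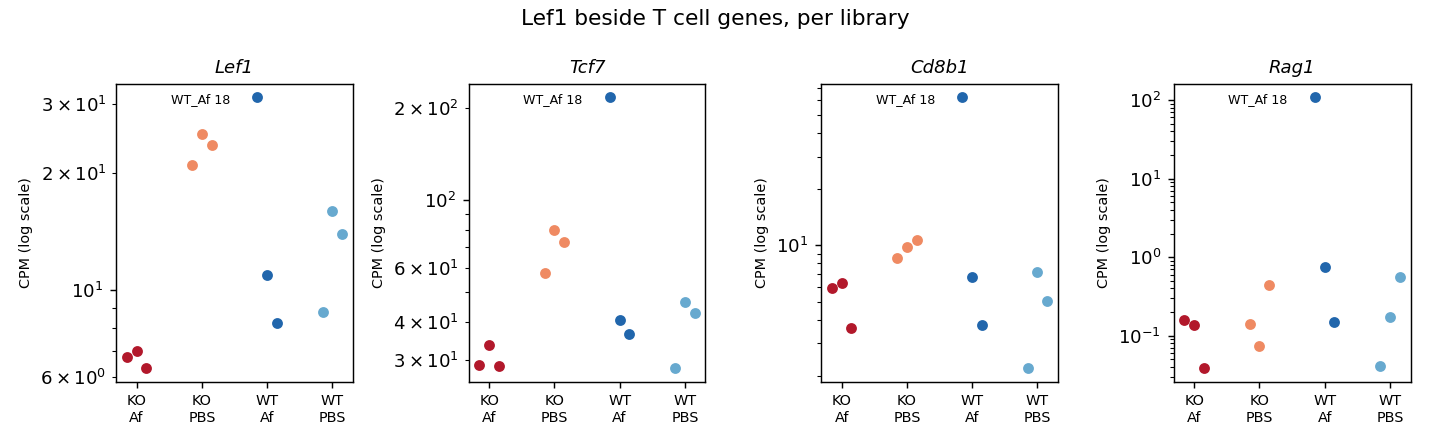
Lef1 and 3 T cell or precursor genes (Tcf7, Cd8b1 and Rag1) by library in CPM (log axis), in the order KO Af, KO PBS, WT Af and WT PBS. WT Af replicate 18 is the highest library for each of the 4 genes, at 31.2 CPM for Lef1 and 109 CPM for Rag1.

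Between genotypes, fewer of the 40 were called than between Af and PBS. Under PBS, 3 of the 40 (7.5%) were called, against 3.12% of all genes. These were Wnt2 higher and Wnt7b and Frzb lower in KO lungs. Wnt2 (ENSMUSG00000010797.6, chr6:17988940-18030585, minus strand), a ligand made by lung mesenchyme, measured 30.03, 30.4 and 30.5 CPM in KO PBS lungs, against 14.4, 19.4 and 19.7 CPM in WT PBS lungs. The KO values lay close together and above all WT values, 1.69-fold higher (log2 0.76 ± 0.16, adjusted p = 0.0297). Under Af its levels were 20.96, 18.3 and 12.8 CPM in KO and 17.3, 16.6 and 16.1 CPM in WT lungs and overlapped (log2 0.03 ± 0.16, adjusted p = 0.957).

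Wnt7b had 2.67, 2.64 and 3.82 CPM in KO PBS lungs, against 5.59, 5.51 and 4.96 CPM in WT PBS lungs, and was 1.67-fold lower in KO (log2 -0.74 ± 0.16, adjusted p = 0.0310). Frzb (ENSMUSG00000027004.3, chr2:80411970-80447625, minus strand) had 0.924, 0.446 and 1.01 CPM in KO PBS lungs, against 2.61, 1.996 and 1.98 CPM in WT PBS lungs, and was 2.12-fold lower in KO (log2 -1.08 ± 0.25, adjusted p = 0.0383). Under Af, Frzb measured 2.36, 1.61 and 1.16 CPM in KO lungs and 1.78, 2.56 and 1.54 CPM in WT lungs (log2 -0.17 ± 0.25, adjusted p = 0.810). All 3 genes also changed with Af in KO lungs, Wnt2 downwards (log2 -0.81 ± 0.16, adjusted p = 0.00129), Wnt7b and Frzb upwards (Frzb at log2 0.77 ± 0.25, adjusted p = 0.0206), and these comparisons share the KO PBS libraries. In WT lungs none of them was called under Af.

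None of these 3 calls held in every setting. The Frzb call was lost when any of the 6 PBS libraries was left out (adjusted p from 0.0734 to 0.162). That of Wnt2 was kept only without WT PBS replicate 16 and that of Wnt7b only without KO PBS replicate 11, with adjusted p up to 0.114 and 0.142 in the other cases. Fzd3, not called under PBS in the main fit, was called lower in KO PBS lungs in several alternatives. They were a pseudocount of 1 CPM, a filter at 1 CPM, median-ratio scaling, no trend, array weights and DESeq2. Array weights and DESeq2 also called Wnt9b, array weights Fzd6 and DESeq2 Sfrp1. In all, 11 of the 40 had an unadjusted p under 0.05 under PBS, as did 16.6% of all genes. The KO and WT groups did not overlap under PBS for 6 higher and 9 lower in KO, against 16.6% and 15.0% of all genes.

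Under Af none of the 40 differed between genotypes by limma, against 0.0627% of all genes, and 4 had an unadjusted p under 0.05, against 10.9% of all genes. edgeR called none, DESeq2 called Lef1, and limma with array weights called Axin2, Sfrp5, Wif1, Sfrp4, Fzd6 and Fzd4. Averaged over both exposures none was called by limma or edgeR, against 1.93% of all genes, and 7 had an unadjusted p under 0.05 (18.4% of all genes did). On that average DESeq2 called Wnt2, Fzd6, Wnt7b and Frzb, and limma with array weights Rspo3, Fzd6, Wnt7b, Frzb and Dkk3. The response to Af differed between genotypes for none of the 40 by limma or edgeR, against 0.00570% of all genes (1 gene), while 9 had an unadjusted p under 0.05, as did 10.5% of all genes. DESeq2 called that difference for Wif1 and Lef1, and limma with array weights for these and 5 others (Axin2, Wnt2, Wnt9b, Wnt7b and Nkd1). The 9 were Fzd3, Frzb, Sfrp1, Wnt2, Wnt7b, Wnt9b, Axin2, Lef1 and Wif1. The difference in response, KO minus WT, was log2 0.68 ± 0.22, adjusted p = 0.277 for Sfrp1, -0.32 ± 0.13, adjusted p = 0.395 for Axin2 and -1.01 ± 0.28, adjusted p = 0.208 for Wif1. In each of these comparisons DESeq2 and array weights also called many more of all genes than the main fit, by counts given at the end. A p above the threshold does not show that the genotypes respond alike.

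Other genes of the pathway were taken from lists of its secretion, reception and relay steps, 82 of 88 of which were tested. Rnf43, Znrf3 and Tcf7 are each in 2 lists, and are counted in both below but once in these totals. Under Af 10 of the 82 rose and 40 fell in KO, against 27.3% and 27.7% of all genes, and 8 rose and 38 fell in WT, against 24.9% and 24.2%. Of 5 secretion genes 3 fell in KO and 4 in WT, with none higher. Porcn, the enzyme that attaches the lipid to Wnts, had 17.1, 12.0 and 13.9 CPM in KO Af lungs, against 29.9, 32.5 and 29.98 CPM in KO PBS lungs, and 15.8, 15.9 and 15.7 CPM in WT Af lungs, against 29.4, 32.5 and 32.6 CPM in WT PBS lungs. It fell in both (log2 -1.09 ± 0.11 in KO and -0.97 ± 0.11 in WT), as did the glypicans Gpc3 (-1.12 ± 0.10 in KO and -1.09 ± 0.10 in WT), which is also among the alveolar fibroblast markers below, and Gpc6 (-1.22 ± 0.13 in KO and -1.26 ± 0.13 in WT).

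Of 8 coreceptors and receptor turnover genes, 6 fell in KO and 7 in WT and none rose. Rnf43, a ligase that removes Frizzled receptors, fell in both (log2 -1.10 ± 0.20 in KO and -0.90 ± 0.20 in WT). Reck, a membrane protein that helps cells receive Wnt7 ligands, had 24.9, 27.8 and 27.9 CPM in KO Af lungs, against 99.6, 98.4 and 94.8 CPM in KO PBS lungs, and 31.7, 28.9 and 32.1 CPM in WT Af lungs, against 74.5, 95.5 and 94.0 CPM in WT PBS lungs. It fell in both, with log2 -1.84 ± 0.10 in KO and -1.49 ± 0.10 in WT. Of 15 genes of other receptors and planar cell polarity, 2 rose and 7 fell in KO, and none rose and 5 fell in WT. Ror2, a receptor of Wnt5a, rose in KO (log2 1.04 ± 0.26, adjusted p = 0.00513) and was at 0.28 ± 0.26, adjusted p = 0.387 in WT. Prickle1 (log2 -1.60 in KO and -1.02 in WT), Prickle2 (-1.40 in KO and -0.86 in WT) and Daam2 (-1.14 in KO and -1.34 in WT), which act in polarity and Dishevelled signalling, fell in both.

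Inside the cell, 1 of 21 relay genes rose and 9 fell in each genotype. Among these, Apc2, a relative of Apc, fell in both (log2 -2.10 ± 0.21 in KO and -0.89 ± 0.21 in WT), and so did Nkd2, the relative of Nkd1 (-0.85 ± 0.21 in KO and -1.52 ± 0.21 in WT). Of 12 nuclear genes 8 fell in KO and 7 in WT and none rose, with Pygo1 (log2 -1.12 in KO and -1.10 in WT) and the corepressor Tle2 (-1.43 in KO and -1.16 in WT) past a 2-fold fall in both. Of 9 genes in a further list of antagonists and other modulators, 3 rose and 3 fell in KO and 2 rose and 2 fell in WT. Draxin, which binds the coreceptors, rose (log2 0.96 in KO and 1.37 in WT), Bambi fell (-1.03 in KO and -1.02 in WT), and Sost was called lower in KO alone (log2 -1.27 ± 0.39, adjusted p = 0.0150, and -0.58 ± 0.39, adjusted p = 0.230 in WT).

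Of 15 further genes commonly used as targets, 4 rose and 6 fell in KO and 5 rose and 6 fell in WT. Myc, a growth regulator with many inputs besides Wnt, measured 52.5, 75.6 and 75.5 CPM in KO Af lungs, against 15.9, 13.4 and 13.1 CPM in KO PBS lungs, and 52.7, 73.0 and 66.6 CPM in WT Af lungs, against 14.4, 16.4 and 20.1 CPM in WT PBS lungs. It rose by log2 2.21 ± 0.17 in KO and 1.89 ± 0.17 in WT, the opposite direction to Axin2. Vegfa fell (log2 -1.48 in KO and -1.24 in WT), and so did Wisp2 (-1.10 in KO and -0.81 in WT). All 6 cell cycle genes rose in both genotypes, and their part in the Myc values was not tested.

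Tnfrsf19, a receptor that the pathway induces, was the 1 gene of the 82 called between genotypes under PBS. It had 66.6, 75.6 and 69.9 CPM in KO PBS lungs, against 42.5, 43.6 and 40.9 CPM in WT PBS lungs (log2 0.73 ± 0.10, adjusted p = 0.00422). Under Af it had 19.4, 22.1 and 16.3 CPM in KO lungs and 24.9, 23.0 and 22.9 CPM in WT lungs, and it fell with Af in both (log2 -1.86 ± 0.10 in KO and -0.83 ± 0.10 in WT). The difference between those falls did not pass (log2 -1.02 ± 0.14, adjusted p = 0.0602). None of the 82 was called between genotypes under Af, on average, or in the response by limma, with 9, 17 and 12 at an unadjusted p under 0.05, against 10.9%, 18.4% and 10.5% of all genes.

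Markers of several lung cell types moved with Af beside these genes. Of 10 alveolar fibroblast markers, which include mesenchymal genes of the alveolar wall, all 10 fell in both genotypes, and their sum was 1999 to 2374 CPM in KO Af, 6456 to 6857 CPM in KO PBS, 2233 to 2757 CPM in WT Af and 6075 to 6818 CPM in WT PBS lungs. Ciliated markers fell in 6 of 7 in KO and 7 of 7 in WT, and club cell markers in 4 of 6 in KO and 5 of 6 in WT. Goblet cell markers rose in 6 of 6 in KO and 5 of 6 in WT. Summed macrophage markers were 863 to 1696 CPM in KO Af and 428 to 459 CPM in KO PBS lungs. In WT they were 1009 to 1448 CPM in Af and 415 to 502 CPM in PBS lungs. Sums of neutrophil and of eosinophil markers were also higher in every Af library than in every PBS library of its genotype. The part of any of these cell types in the Wnt, Frizzled and antagonist values was not tested.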

How the data were processed

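Messenger RNA of mouse lung was read from the authors' deposited gene table of 12 libraries. Kits were Qiagen RNEasy for extraction and Illumina TruSeq mRNA for libraries, per the labels' protocols. The submitters' processing notes list cutadapt 1.18, STAR 2.7.6a and RSEM 1.3.0, and the builds GRCm38 and GRCh38 with no role for either. The deposited values are a signal per gene, which the table's name gives as TMM-adjusted CPM from RSEM. In each library every value (100%, tolerance 0.01) was a whole multiple of 1 read, so counts could be recovered from the deposited values for edgeR and DESeq2. The strand setting of the counting is not known, so overlapping opposite-strand genes are uncertain. Identifiers matched GENCODE M21 (GRCm38) for 49326 entries (99.5%), the source of coordinates and exon lengths.

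Groups and replicate numbers come from the labels. The 17552 genes reaching 0.5 CPM in at least 3 libraries were tested with limma 3.58.1 (R 4.3.3) on log2(CPM + 0.5). The fit covered all 4 groups and used a mean-variance trend, with two-sided p-values under Benjamini-Hochberg adjustment. The comparisons were Af against PBS within KO and within WT, KO against WT under Af, under PBS and on average, and the interaction. Alternatives changed the pseudocount, filter, scaling, trend, array weights, tool (edgeR 4.0.16, DESeq2 1.42.0), groups in the fit and libraries. The fitting was tested on simulated data. Values in every library are given for genes called under Af with a log2 fold change of at least 1 in size, or called between genotypes, and other pathway genes are named by the same rule. Rspo3, below that size, was added after its values were seen because it rose in both genotypes. The genes, lists and alternatives were chosen with earlier results of these data known. Promoter windows are from RefSeq (GRCm38.p6).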

Additional observations from a re-analysis of the deposited data

Results flagged for a closer look

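The difference in the response to Af between KO and WT lungs passed in DESeq2 for 2 of the 40 genes, Wif1 and Lef1. Limma with array weights called both as well, among 7 genes, while limma without such weights and edgeR called none. DESeq2 and array weights also called many more of all genes than the main fit, by the counts in the next section. For Wif1 the difference in response was log2 -1.06 in DESeq2 (adjusted p = 0.0454), against -1.01 with limma (adjusted p = 0.208) and -1.05 with edgeR (adjusted p = 0.231). With array weights it was -1.09 (adjusted p = 0.00582). Wif1 fell in all 3 Af libraries of each genotype. With limma, leaving out 1 library at a time gave -1.23 to -0.85 for Wif1.

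For Lef1 the difference was log2 -2.16 in DESeq2 (adjusted p = 0.00967), against -1.89 with limma (adjusted p = 0.208) and -2.15 with edgeR (adjusted p = 0.184). With array weights it was -1.46 (adjusted p = 0.0361). Without WT Af replicate 18, the library with T cell precursor genes, limma gave -1.34 (adjusted p = 0.191). The part of that library's lymphoid RNA in the difference was not tested.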

How the results depend on the processing

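Of the genes called under Af, 25 of 30 in KO lungs and 20 of 25 in WT lungs were called in every alternative run. The exceptions were Fzd6, Fzd9, Frzb, Sfrp5 and Dkk2 in KO and Fzd6, Sfrp4, Wnt11, Wnt4 and Wnt5b in WT. No paired analysis was possible because each library number is used only once, so the groups share none. Low genes such as Fzd9, Fzd10, Wnt6 and Rspo2 rest on few reads, and 3 libraries a group limit what can be called between genotypes.

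Counts between genotypes moved with the setting, and the cause was not tested. Under PBS, where 3 of the 40 and 548 of all genes were called, none of the 40 was called without a filter, 6 with array weights (2458 of all genes), 6 with DESeq2 (1194) and 1 without WT PBS replicate 17, KO Af replicate 12 and WT Af replicate 18, a setting chosen after seeing the data. Fitting the PBS groups alone called 1078 of all genes, and leaving out 1 library at a time called 0 to 1 of the 40 and 126 to 416 of all genes. Under Af, against 0 of the 40 and 11 of all genes, array weights called 6 (1631 of all genes) and DESeq2 1 (191). Of all genes, 17 were called with a pseudocount of 0.1 CPM, 17 after rescaling each library to one sum, 3 with the Af groups alone, 6 without the 3 libraries and 2 to 101 with 1 library left out.

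Averaged over exposures, against 0 of the 40 and 339 of all genes, array weights called 5 (2831 of all genes), DESeq2 4 (1132) and no filter 188 of all genes, while leaving out 1 library gave 0 to 1 and 103 to 757. For the interaction, against 0 of the 40 and 1 of all genes, array weights called 7 (1242 of all genes) and DESeq2 2 (354). Of all genes, 0 were called with a pseudocount of 1 CPM, without a filter or without the trend, 5 after rescaling to one sum and 0 to 168 with 1 library left out.

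Among the differences rerun in every setting, which are not all those of the 40 genes, 7 changed sign, none of them called. In WT lungs under Af, Frzb was at log2 0.065 with array weights, Lef1 at -0.28 with array weights and -0.31 without the 3 libraries, and leaving out 1 library gave -0.38 to 0.55 for Lef1 and -0.11 to 0.0063 for Wnt7b. In KO lungs under Af it gave -0.19 to 0.026 for Fzd3. Between KO and WT under Af, it gave -0.37 to 0.022 for Frzb, -0.12 to 0.23 for Wnt2 and -0.14 to 0.071 for Wnt7b. That comparison gave Wnt2 at -0.014 after rescaling to one sum, -0.26 with array weights, -0.12 without WT PBS replicate 17 and KO Af replicate 12 and -0.089 without the 3 libraries, and Wnt7b at 0.019 with array weights.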
